A study of Homo sapiens with 4 samples.

Results

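The transcripts described here encode the machinery of mitosis: CDK1 with its cyclins and activators, the mitotic kinases, the spindle checkpoint, the kinetochore, the chromosomal passenger complex, the kinesins and the proteins that build the spindle and divide the cell. They were listed by symbol and found by matching the Ensembl identifiers of the expression table to gene names, and all 46 were among its 62443 genes. Of the 46, 42 averaged 1 FPKM or more across the 4 libraries and were tested, as were 7588 genes in all. FPKM corrects for gene length and for library size, so that levels of different genes can be set side by side.

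The cells were HGC-27, an established human gastric cancer line grown in serum-containing medium. In 2 libraries the cells had received GLUP, a disulfide-cyclized linker peptide built from repeats of the TEAD4-binding motif of VGLL4 and intended to bring TEAD4 molecules together, at 10 μg/ml. In the other 2 libraries the cells were controls, which the labels record as untreated and the methods as given the stocking buffer of the peptide. The exposure is given as 12 h in one place and 48 h in another. The comparison asks how the transcripts of dividing cells differ when a peptide meant to silence TEAD4-driven transcription is added. All libraries came from a single line without a knockout, so a difference cannot be assigned to TEAD4 from these data, and fewer dividing cells cannot be told apart from less RNA per cell. The methods state that RNA came from 2 or more biological replicates, and the labels name separate samples, so the p-values measure the spread between 2 such libraries per group.

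Control replicate 2 stood apart from the other libraries. On the log2(FPKM + 1) scale its Pearson r with the GLUP libraries was 0.873 and 0.887, against 0.952 and 0.957 for control replicate 1, 0.933 between the controls and 0.986 between the GLUP libraries. Over all genes tested, the median log2 fold change was −0.36. Of the gastric markers, 5 of 7 were listed at 0 in every library and their summed level was at most 0.0630 FPKM. The epithelial markers EPCAM and CDH1 did not exceed 0.124 FPKM. Of the 7 epithelial markers, 4 averaged 1 FPKM or more, KRT18 and KRT7 among them, and the 7 summed to between 9.92 and 11.6 FPKM. The 4 mesenchymal markers (VIM, CDH2, FN1 and SPARC) summed to between 301 and 396 FPKM. Most of this was VIM, the mesenchymal intermediate filament, at 293 to 387 FPKM. Of the 4, 3 averaged 1 FPKM or more, and the median of those 3 was 7.15 FPKM. The summed fibroblast markers lay between 119 and 125 FPKM in the 4 libraries, with DCN at 20.1 to 41.3 FPKM and LUM at 59.0 to 76.7 FPKM. The leukocyte markers summed to at most 0.289 FPKM, with CD3E at 0 throughout.

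Mitosis begins when cyclin B and CDK1 phosphorylate their substrates, a switch that the CDC25 phosphatases, PLK1 and the Aurora kinases reinforce. Kinetochores then capture spindle microtubules while the checkpoint restrains CDC20, and once every chromosome is attached the anaphase-promoting complex destroys cyclin B and securin so that sister chromatids part. Most of these genes are transcribed late in the cell cycle. Their promoters are known for CCAAT boxes, bound by NF-Y, and for the cell cycle genes homology region (CHR), bound by the MuvB complexes that carry either the DREAM repressor or B-MYB and FOXM1.

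The promoters of 4 members are printed because they place the same letters before genes with fold changes of opposite sign. PLK1 was called higher and CDK1 and DLGAP5 were called lower in GLUP-treated cells, and CDC20, with both GLUP libraries above both controls, was not called. Each line holds 170 bases upstream of a transcription start, read 5′ to 3′ on the strand of the gene, from RefSeq on GRCh38.p14. Capitals mark CCAAT boxes and the CHR letters TTTGAA, with both strands searched.
PLK1: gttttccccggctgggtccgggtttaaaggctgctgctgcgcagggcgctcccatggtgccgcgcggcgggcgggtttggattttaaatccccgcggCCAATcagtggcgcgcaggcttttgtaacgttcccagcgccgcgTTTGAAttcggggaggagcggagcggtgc
CDC20: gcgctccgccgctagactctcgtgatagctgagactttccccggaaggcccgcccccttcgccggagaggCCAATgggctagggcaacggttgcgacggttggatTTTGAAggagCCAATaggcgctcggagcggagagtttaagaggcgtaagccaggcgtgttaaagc
CDK1: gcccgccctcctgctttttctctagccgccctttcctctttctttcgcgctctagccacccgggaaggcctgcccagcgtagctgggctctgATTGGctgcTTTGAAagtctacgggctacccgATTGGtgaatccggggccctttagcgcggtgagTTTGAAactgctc
DLGAP5: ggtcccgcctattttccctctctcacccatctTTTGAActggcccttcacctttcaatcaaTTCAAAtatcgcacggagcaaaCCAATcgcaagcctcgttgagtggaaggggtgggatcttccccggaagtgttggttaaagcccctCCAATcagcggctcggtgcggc
The window of PLK1 is chr16:23678719-23678888 on the plus strand, that of CDC20 is chr1:43358811-43358980 on the plus strand, that of CDK1 is chr10:60778308-60778477 on the plus strand and that of DLGAP5 is chr14:55191586-55191755 on the minus strand. CDK1 has a further start upstream, for which the same table holds another window.

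Promoter windows of 300 bases, from 250 before to 50 after the start, were held for 39 of the 46 genes, in 49 windows. No entry was held for AURKA, BIRC5, BUB3, FOXM1, TPX2, TTK or UBE2C. CCAAT, read on either strand, was in 77.6% of the 49 windows and in 34.6% of all 35116 promoter windows. TTTGAA was in 65.3% of the members' windows and in 15.2% of all, and the variant TTCGAA, which cannot share a position with it, in 6.12% and 1.45%. A CCAAT box together with either form of the CHR was in 59.2% of the members' windows and in 6.38% of all. The GC box letters GGCGGG were in the promoters of 89.7% of the 39 genes and of 48.3% of all genes in the table. Among the 25 tested members that held TTTGAA, log2 fold changes ran from −1.41 to 1.94, with a median of −0.71, and the 10 without it had a median of −0.05. For CCAAT the medians were −0.64 in the 29 with it and −0.56 in the 6 without. For GGCGGG they were −0.56 in the 31 with it and −0.83 in the 4 without. These medians carry no test, and fold changes also moved with the GC content of the transcripts, as given below. These matches are letters in a window, and no binding was measured here.

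On the log2(FPKM + 1) scale, 30 of the 42 members tested were lower and 12 were higher in GLUP-treated cells, with a median of −0.58 against −0.36 over all genes tested. The share lower was 71.4% of the members and 66.7% of all genes. In 27 members the higher GLUP library was below the lower control, which is 64.3% of them against 49.7% of all genes tested. The reverse held in 6 members, 14.3% against 17.5% of all genes, and the groups overlapped in 9. Among the 27, CENPA, CENPE, KIF11 and TTK were under 1 FPKM in both GLUP libraries, so they passed the filter through the control libraries. Members were called where the unadjusted p of limma was under 0.05 and the fold change over 2. By this rule 8 members were lower, NUSAP1, BUB1, BUB3, CDK1, DLGAP5, NDC80, SPC25 and NUF2, or 19.0% of those tested beside 14.5% of all genes. PLK1 was the 1 member called higher, 2.38% beside 4.67% of all genes.

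After Benjamini-Hochberg adjustment over the 7588 genes, none of the 42 members had a limma p under 0.05, and their adjusted p ran from 0.10 to 0.862. The same threshold was passed by 2 genes in all, 0.0264% of those tested. Without adjustment, 15 members were lower with a limma p under 0.05, 35.7% beside 25.4% of all genes, and 1 was higher, 2.38% beside 6.37%. CENPA and TTK, which passed the filter through the controls, were among the 15. A permutation of 2 libraries against 2 cannot give a two-sided p under 0.333. The calls below are therefore differences that pass an unadjusted limma p and a fold limit, and no more. Without control replicate 2, 5 of the 42 were called lower, beside 12.5% of all genes, and none higher, beside 2.17%. Those 5 were BUB1, BUB3, CDK1, CCNB1 and CENPA, so that 3 of the 8 reported calls were kept. Without control replicate 1, 12 were called lower and 6 higher, beside 23.0% and 12.9% of all genes. Without GLUP replicate 1, BUB1 alone was called lower, beside 5.76% of all genes, and without GLUP replicate 2 no member was, beside 5.82%. PLK1 was the member called higher in both cases, beside 1.98% and 3.19% of all genes.

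**Figure D1:**
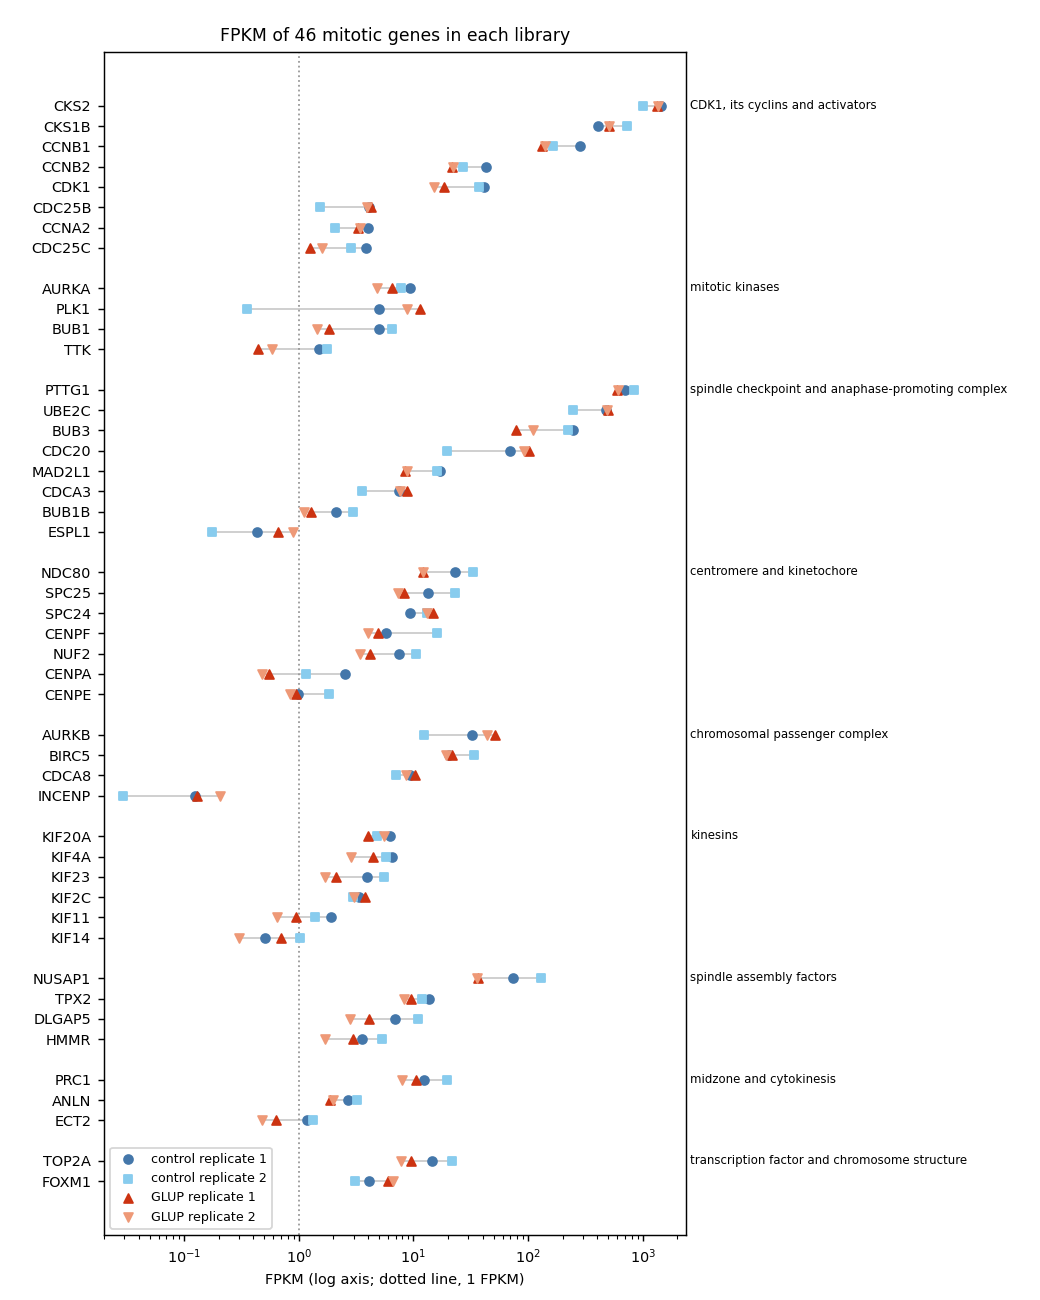
FPKM of the 46 mitotic genes in each library on a log axis, grouped by role, with control libraries in blue and GLUP libraries in red and a dotted line at 1 FPKM. PLK1, CDC20 and AURKB are lowest in control replicate 2, whereas the GLUP libraries of BUB1, BUB3, CDK1 and NUSAP1 lie to the left of both controls.

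CDK1, the kinase that drives entry into mitosis, stood at 41.6 and 37.5 FPKM in control cells against 18.4 and 15.1 FPKM with GLUP. The controls lay close together and the groups did not overlap. Mean FPKM was 2.36-fold lower with GLUP, and the log2 fold change was −1.19 (SE 0.32, limma adjusted p = 0.101). CCNB1, its cyclin partner, was the more abundant B-type cyclin at 286 and 164 FPKM in control and 131 and 141 FPKM in GLUP-treated cells. CCNB2 followed with 42.6 and 27.0 against 21.7 and 22.1 FPKM. Both cyclins were lower in each GLUP library than in either control, yet their log2 fold changes of −0.67 and −0.61 were not called, with limma adjusted p = 0.267 and 0.273. Control replicate 1 was the higher control for both.

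CCNA2, the cyclin that acts from DNA replication into early mitosis, had 4.04 and 2.06 FPKM in control and 3.27 and 3.39 FPKM in GLUP-treated cells. Both GLUP values fell between the controls. CDC25C, a phosphatase that removes the inhibitory phosphates from CDK1, had 3.82 and 2.87 FPKM in control and 1.24 and 1.60 FPKM with GLUP, a log2 fold change of −0.84 (SE 0.27, limma adjusted p = 0.117). On the log2(FPKM + 1) scale this stayed under 2-fold, while the ratio of mean FPKM was 2.36. CDC25B, a related phosphatase, did not share this pattern, since its control libraries of 4.07 and 1.52 FPKM lay on either side of 3.94 FPKM in GLUP replicate 2, with GLUP replicate 1 at 4.25 FPKM. The small CDK-binding subunits CKS2 and CKS1B were the highest and the third highest members by FPKM in GLUP-treated cells. CKS2 had 1428 and 1013 FPKM in control and 1338 and 1369 FPKM with GLUP, and CKS1B had 404 and 735 FPKM in control and 504 and 508 FPKM with GLUP. Both overlapped between the groups. Of the 8 genes around CDK1, 1 was called lower, 12.5% beside 14.5% of all genes, and none higher, beside 4.67%. Their median log2 fold change was −0.36, the same to 2 decimals as that of all genes tested.

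Among the mitotic kinases, PLK1 and BUB1 stood at opposite ends. PLK1, which promotes entry, spindle assembly and cytokinesis, had 5.04 and 0.357 FPKM in control and 11.4 and 8.81 FPKM with GLUP. Its controls differed from each other by 14.1-fold, more than the 3.74-fold between the group means. The log2 fold change was 1.94 (SE 0.70, 95% interval 0.23 to 3.66, limma adjusted p = 0.133). Without control replicate 2 it was 0.87 and was not called, and without control replicate 1 it was 3.02.

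BUB1, the kinase that marks centromeres and starts checkpoint signalling at kinetochores, had 5.03 and 6.46 FPKM in control and 1.83 and 1.43 FPKM with GLUP. The lower control was well above the higher GLUP library, and mean FPKM differed by 3.52-fold. The log2 fold change of −1.35 (SE 0.28) had the lowest limma adjusted p of the members, and the call held when either control was left out. TTK, the kinase that recruits the checkpoint proteins, had 1.51 and 1.76 FPKM in control and 0.437 and 0.587 FPKM with GLUP. Its ratio of mean FPKM was 3.19, but at such levels the pseudocount of 1 compresses the difference, to −0.80 on the log2 scale (SE 0.22, limma adjusted p = 0.104). AURKA, the centrosomal Aurora kinase, had 9.28 and 7.74 FPKM in control and 6.51 and 4.77 FPKM with GLUP, a log2 fold change of −0.53 that was not called (limma adjusted p = 0.272). The groups did not overlap for any of these 4 kinases. PLK1 lay above both controls, as 17.5% of all genes tested did, and the other 3 lay below both, as 49.7% did.

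Of the 7 tested genes of the checkpoint and the anaphase-promoting complex, 1 was called lower, 14.3% beside 14.5% of all genes, and none higher, beside 4.67%. BUB3, a scaffold that docks BUB1 and BUB1B at kinetochores, had 247 and 221 FPKM in control and 77.9 and 110.0 FPKM with GLUP. Mean FPKM was 2.49-fold lower, with a log2 fold change of −1.33 (SE 0.34, limma adjusted p = 0.101), and the call held when either control was left out. MAD2L1, the checkpoint protein that captures CDC20, had 17.1 and 16.2 FPKM in control and 8.42 and 8.77 FPKM with GLUP. Replicates of MAD2L1 were close in both groups, and its log2 fold change of −0.88 (limma adjusted p = 0.123) stayed under 2-fold. BUB1B, a further subunit of the checkpoint complex, had 2.12 and 2.94 FPKM in control and 1.28 and 1.11 FPKM with GLUP, with a log2 fold change of −0.68 (limma adjusted p = 0.144).

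CDC20, the activator of the anaphase-promoting complex and the target of that checkpoint, had 69.4 and 19.5 FPKM in control and 103 and 91.8 FPKM with GLUP. Both GLUP libraries lay above both controls, but the controls themselves were 3.55-fold apart. The log2 fold change of 1.37 (SE 0.61, 95% interval −0.14 to 2.87) was not called (limma adjusted p = 0.184). UBE2C, its ubiquitin-conjugating enzyme, showed the same layout at 474 and 245 FPKM in control and 495 and 487 FPKM with GLUP, as did CDCA3, which promotes the turnover of WEE1, at 7.47 and 3.56 against 8.84 and 7.64 FPKM. In both, control replicate 1 lay close to the GLUP libraries and control replicate 2 was far lower. PTTG1, or securin, which restrains separase, had 695 and 843 FPKM in control and 593 and 613 FPKM with GLUP, a log2 fold change of −0.34. ESPL1, separase itself, had a mean of 0.537 FPKM and was not tested.

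The centromere and kinetochore genes held 3 of the 8 members called lower, 42.9% of their 7 beside 14.5% of all genes. NDC80, NUF2 and SPC25 are subunits of the complex of 4 proteins that grips microtubule ends. NDC80 had 23.0 and 33.2 FPKM in control and 12.2 FPKM in both GLUP libraries, a 2.31-fold lower mean (log2 fold change −1.12, SE 0.34, limma adjusted p = 0.110). NUF2, its direct partner, had 7.54 and 10.5 FPKM in control and 4.18 and 3.41 FPKM with GLUP (log2 fold change −1.05). SPC25 had 13.3 and 23.1 FPKM in control and 8.24 and 7.40 FPKM with GLUP (log2 fold change −1.08). In all 3, control replicate 2 was the highest library, control replicate 1 the next, and the GLUP libraries the lowest. All 3 calls were lost without control replicate 2, at log2 fold changes of −0.86 for NDC80, −0.84 for NUF2 and −0.70 for SPC25.

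SPC24, the remaining subunit of the same complex, did not follow the others. It had 9.31 and 13.2 FPKM in control and 14.9 and 13.1 FPKM with GLUP, so that the groups overlapped, and its log2 fold change was 0.30 with a 95% interval of −0.51 to 1.12. The difference between SPC24 and its partners was not tested.

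CENPA, the histone variant that marks centromeres, had 2.55 and 1.16 FPKM in control and 0.550 and 0.480 FPKM with GLUP, a ratio of mean FPKM of 3.60 and a log2 fold change of −0.87 (SE 0.30, limma adjusted p = 0.128). CENPF, a large protein of the outer kinetochore, had 5.81 and 16.02 FPKM in control and 4.95 and 4.04 FPKM with GLUP. Its log2 fold change of −0.97 came mostly from control replicate 2 and was −0.31 without that library. CENPE, the kinesin that carries chromosomes towards the spindle equator, had 0.984 and 1.84 FPKM in control and 0.940 and 0.840 FPKM with GLUP. The log2 fold change of CENPE, −0.33, did not pass the test. CENPA and CENPE, under 1 FPKM in both GLUP libraries, passed the filter through the controls. With them counted, all 6 of the kinetochore genes other than SPC24 had GLUP libraries below both controls, as 49.7% of all genes tested did. Of all genes with transcripts under 45% GC, a range that holds the median of these genes at 39.9%, 90.4% were lower.

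Of the chromosomal passenger complex, which corrects faulty attachments, none of the 3 members tested was called. Beside this, 14.5% of all genes were called lower and 4.67% higher. AURKB, its kinase, had 32.2 and 12.3 FPKM in control and 51.0 and 43.4 FPKM with GLUP. Both GLUP libraries were above both controls, and the log2 fold change of 1.19 (SE 0.50) had a limma adjusted p of 0.166. BIRC5, or survivin, had 20.5 and 33.8 FPKM in control and 21.8 and 19.3 FPKM with GLUP, and CDCA8, or borealin, had 9.29 and 7.04 against 10.4 and 8.56 FPKM. Both overlapped between the groups. INCENP, the scaffold, had a mean of 0.122 FPKM, the lowest of the 46, and was not tested.

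None of the 5 kinesins tested was called, beside 14.5% of all genes called lower and 4.67% higher. KIF23, a subunit of the centralspindlin complex, came nearest with 3.91 and 5.54 FPKM in control and 2.09 and 1.68 FPKM with GLUP, a log2 fold change of −0.98 (SE 0.29, limma adjusted p = 0.110) that fell just short of 2-fold. KIF11, which pushes spindle poles apart, had 1.92 and 1.39 FPKM in control and 0.940 and 0.652 FPKM with GLUP (log2 fold change −0.56). KIF4A, a chromosome-bound motor, had 6.51 and 5.72 against 4.40 and 2.87 FPKM (log2 fold change −0.64). In these 3, 60.0% of the 5 tested, both GLUP libraries lay below both controls, as in 49.7% of all genes tested. The groups overlapped for KIF20A, which works in cytokinesis and lay between 4.01 and 6.21 FPKM in the 4 libraries. They also overlapped for KIF2C, a microtubule depolymerase at 2.95 to 3.75 FPKM. KIF14, with a mean of 0.633 FPKM, was not tested.

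NUSAP1, a microtubule-bundling protein of the spindle, had the lowest log2 fold change of the 42. Its levels were 73.4 and 129.7 FPKM in control and 36.3 and 36.2 FPKM with GLUP. The GLUP libraries were almost equal while the controls were 1.77-fold apart, and mean FPKM was 2.80-fold lower (log2 fold change −1.41, SE 0.39, limma adjusted p = 0.104). NUSAP1 shares 2938 exonic bases with an unnamed coding gene on the same strand that stood under 1 FPKM, and 195 bases with OIP5-AS1. DLGAP5, which stabilises kinetochore fibres, had 6.85 and 11.0 FPKM in control and 4.08 and 2.80 FPKM with GLUP (log2 fold change −1.14, SE 0.35). HMMR and TPX2, which help spindle assembly near the poles and the chromosomes, had log2 fold changes of −0.71 and −0.49 and were not called. HMMR had 3.55 and 5.28 FPKM in control and 2.96 and 1.69 FPKM with GLUP, and TPX2 had 13.8 and 11.9 against 9.48 and 8.29 FPKM. Without control replicate 2, NUSAP1, just under 2-fold at −0.9995, and DLGAP5 at −0.84 were no longer called. All 4 spindle assembly genes lay below both controls in both GLUP libraries, as 49.7% of all genes tested did.

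For the proteins of the central spindle and the cleavage furrow, values were lower without a call. PRC1, which bundles midzone microtubules, had 12.4 and 19.5 FPKM in control and 10.6 and 7.97 FPKM with GLUP, and ANLN, an actin-binding scaffold of the contractile ring, had 2.69 and 3.22 against 1.87 and 1.97 FPKM. Both lay below both controls in both GLUP libraries, as 49.7% of all genes tested did, and their log2 fold changes were −0.70 and −0.43. ECT2, which activates RhoA at the furrow, had 1.18 and 1.33 FPKM in control and 0.637 and 0.473 FPKM with GLUP. Its mean of 0.906 FPKM put it just outside the filter, with TTK at 1.07, CENPE at 1.15 and CENPA at 1.19 FPKM just inside.

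FOXM1 and TOP2A went in opposite directions. FOXM1, a transcription factor of the late cell cycle genes, had 4.13 and 3.12 FPKM in control and 5.96 and 6.67 FPKM with GLUP. Both GLUP libraries were above both controls, and the log2 fold change of 0.67 (SE 0.29) had a limma adjusted p of 0.175. TOP2A, the topoisomerase that untangles chromosomes, had 14.4 and 21.6 FPKM in control and 9.47 and 7.72 FPKM with GLUP, a log2 fold change of −0.96 (SE 0.35, limma adjusted p = 0.133) just under 2-fold.

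**Figure D2:**
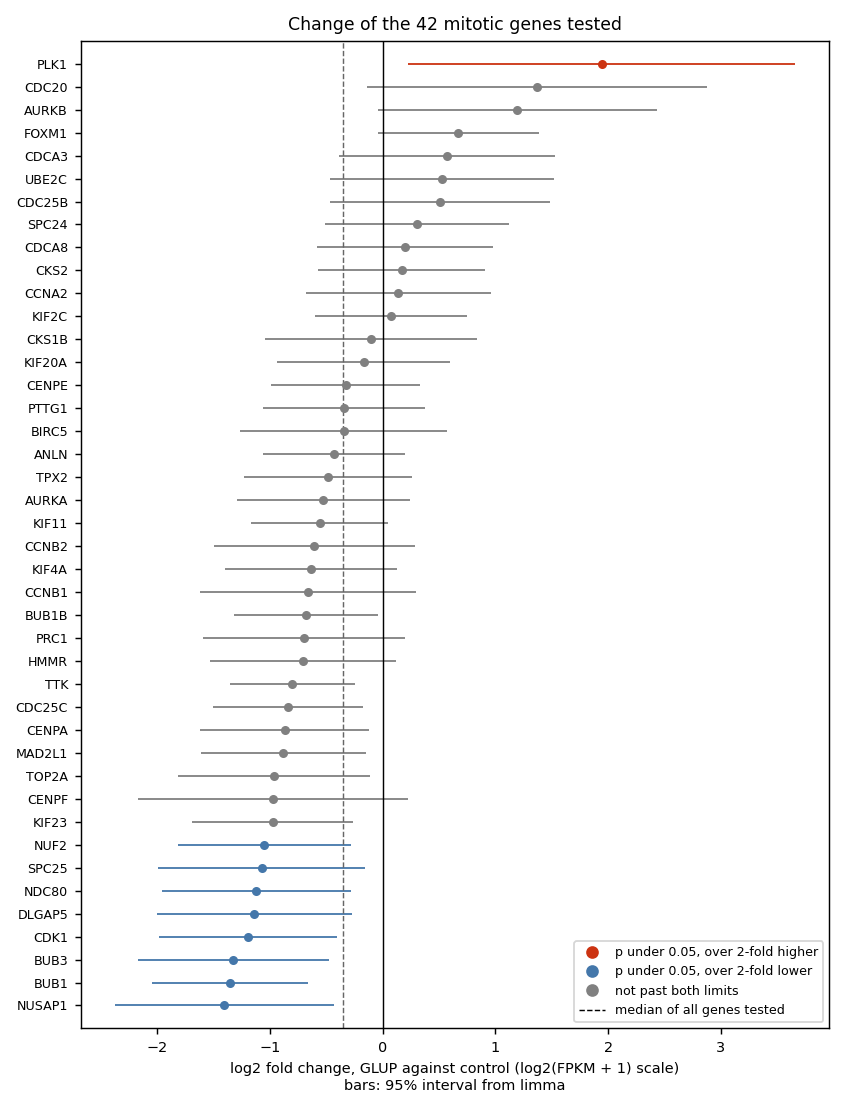
Log2 fold change of the 42 tested mitotic genes, GLUP against control on the log2(FPKM + 1) scale, with bars for the 95% interval from limma and a dashed line at the median of all genes tested, −0.36. PLK1 at 1.94 is the 1 gene called higher, and the 8 called lower lie between −1.05 and −1.41.

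Added together, the 46 genes held 4028 and 3730 FPKM in control and 3556 and 3600 FPKM in GLUP-treated cells. That was 0.443% and 0.404% of all FPKM in control and 0.380% and 0.379% with GLUP, and the sums did not overlap. The 6 most abundant members (CKS2, PTTG1, CKS1B, UBE2C, CCNB1 and BUB3) made up 86.3% to 89.7% of them. Of these 6, CCNB1, BUB3 and PTTG1 lay below both controls in both GLUP libraries, as 49.7% of all genes tested did. UBE2C lay above both controls, as 17.5% did, and CKS2 and CKS1B overlapped. The sums therefore rest mostly on a few genes that did not all go the same way. By role, the kinetochore had the lowest median log2 fold change at −0.97, followed by the spindle assembly factors at −0.93 and the mitotic kinases at −0.66. Without control replicate 2 these medians were −0.70, −0.71 and −0.69, with the kinesins at −0.71, so the order was not kept. With the GC trend subtracted they were −0.30, −0.24 and −0.13. The chromosomal passenger complex was the only role group with a median above 0, at 0.20 over 3 genes. These medians describe the listed genes and carry no test.

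The controls differed along the same axis as the groups for many members. Control replicate 1 lay between control replicate 2 and both GLUP libraries in 22 of the 42, or 52.4%, against 47.9% of all genes tested. None of the 8 genes around CDK1 had this order, whereas 5 of 7 kinetochore genes did. AURKB, CDC20, PLK1 and UBE2C were lowest in control replicate 2, and CENPF, NDC80, NUSAP1, SPC25 and TOP2A were highest there.

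**Figure D3:**
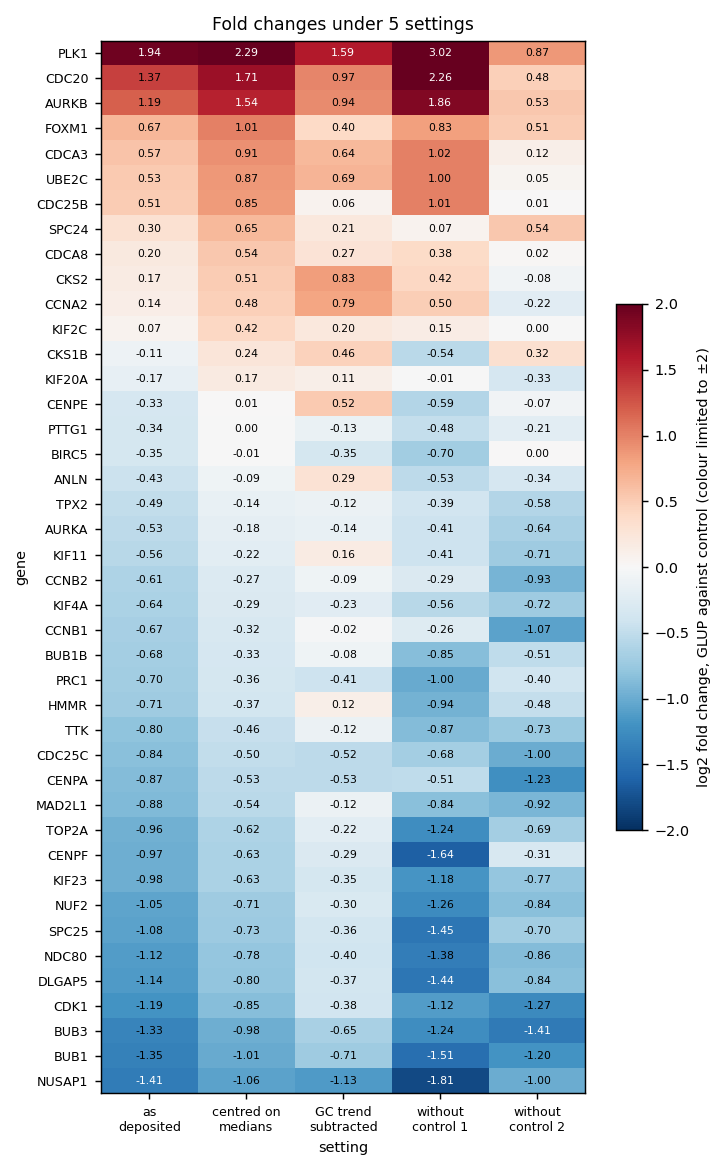
Log2 fold change of the 42 tested members under 5 settings: as deposited, centred on medians, with the GC trend subtracted, and without either control library. PLK1 ranges from 0.87 without control replicate 2 to 3.02 without control replicate 1, whereas BUB1 stays between −0.71 and −1.51.

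The fold changes of the members moved with the GC content of their transcripts. Across the 42 genes, whose GC content ran from 35.4% to 59.1%, the log2 fold change correlated with GC content at a Pearson r of 0.75 and a Spearman rho of 0.67. The same values were 0.56 and 0.58 across 7570 genes tested. These are correlations across genes that share 4 libraries, and genes are not independent replicates. Between the controls alone, the log2 difference of replicate 2 minus replicate 1 correlated with GC content at a rho of −0.47 over the members and −0.42 over all genes.

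In transcripts under 45% GC, 20 of 22 members were lower, 90.9% against 90.4% of all genes in that range, with medians of −0.84 and −0.69. From 45% to 50% GC, all 9 members were lower, against 72.5% of all genes. At 50% GC or above, 10 of 11 members were higher, 90.9% against 64.4% of all genes, with medians of 0.53 and 0.26, and PLK1, CDC20, AURKB and FOXM1 were among them. After the trend with GC content was subtracted, 1 member was called lower, NUSAP1, against 4.57% of all genes, and 1 higher, PLK1, against 4.68%. The median of the members was then −0.10. The log2 fold change of CDK1 became −0.38, that of BUB1 −0.71 and that of NDC80 −0.40, and that of NUSAP1 was −1.13.

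**Figure D4:**
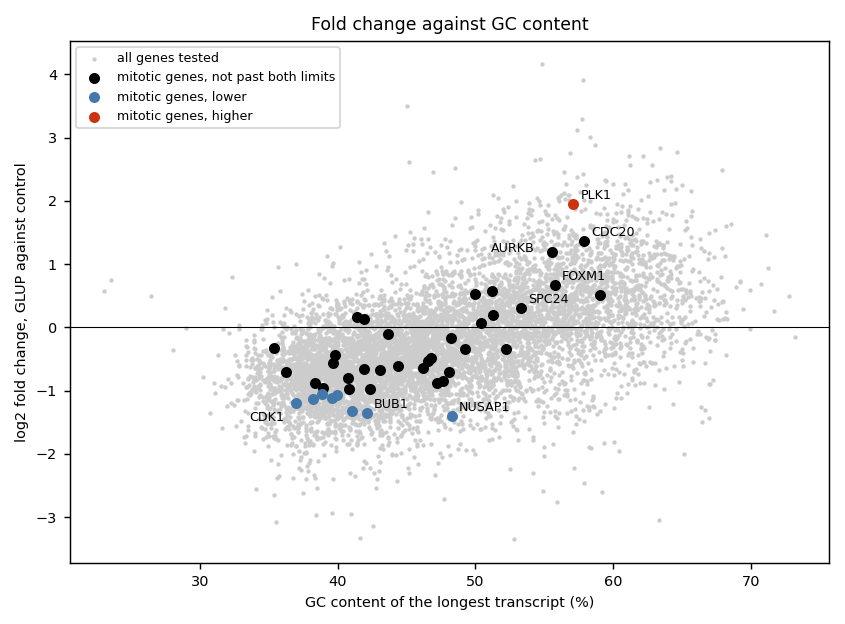
Log2 fold change of GLUP against control plotted against the GC content of the longest transcript in percent, with all genes tested in grey and the 42 mitotic genes in black, blue where called lower and red where called higher. The members called lower lie below 50% GC, and PLK1, CDC20, AURKB and FOXM1 lie above it.

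Because the median of all genes was itself −0.36, the values were also centred on the median of each library. The members called lower were then BUB1 and NUSAP1, with 5.64% of all genes called lower, and those called higher were AURKB, CDC20, FOXM1 and PLK1, with 10.5% of all genes called higher. Relative to all genes tested, the median of the members was −0.23. Calls for CDK1, BUB3, DLGAP5, NDC80, SPC25 and NUF2 were thus lost under centring, at centred log2 fold changes of −0.71 to −0.98, and their direction was kept.

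Genes outside the 46 were read from 7 further cell cycle lists, of which 112 of 142 genes were tested. One list held cyclins of the earlier cell cycle and CDK inhibitors, and 10 of the 112 came from it. Of the 112, 85 were lower and 27 higher in GLUP-treated cells, with a median log2 fold change of −0.63, and 29 were called lower and 4 higher, beside 14.5% and 4.67% of all genes. With the GC trend subtracted, 5 were called lower and 2 higher, beside 4.57% and 4.68% of all genes, and the median was −0.21. None of the lists was tested as a set.

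The anaphase-promoting complex, the ubiquitin ligase that CDC20 activates, had 4 of 13 tested genes called lower, 30.8% beside 14.5% of all genes. CDC23, one of its core subunits, had 11.5 and 12.6 FPKM in control and 3.25 and 3.01 FPKM with GLUP, a log2 fold change of −1.66, while ANAPC15 had −0.57. The CDC23 gene shares 74 exonic bases with KIF20A on the opposite strand. Condensins and cohesins, which fold and tie the chromatids, had 5 of 18 called lower, 27.8% beside 14.5%, and 1 higher, 5.56% beside 4.67%, from SMC4 at −2.04 to NCAPH2 at 1.30. Leaving out control replicate 1 or control replicate 2 gave −1.15 or −2.94 for SMC4 and 2.00 or 0.59 for NCAPH2. The other kinetochore subunits had 7 of 28 called lower, 25.0% beside 14.5%, and none higher, from CENPN at −1.65 to PMF1 at 1.53, and PMF1 was not called. Leaving out control replicate 1 or control replicate 2 gave −2.20 or −1.10 for CENPN and 2.61 or 0.46 for PMF1.

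The other regulators of mitotic entry and exit had 7 of 15 called lower, 46.7% beside 14.5% of all genes, and none higher. ARPP19, an inhibitor of the phosphatase that opposes CDK1, had 14.1 and 26.2 FPKM in control and 2.73 and 4.06 FPKM with GLUP, a log2 fold change of −2.22, and CDC14B had −0.31. CDKN3, a phosphatase that acts on CDKs and was picked out after its values were seen, had 617 and 640 FPKM in control and 148 and 163 FPKM with GLUP, a log2 fold change of −2.01. Because CDKN3 was picked for these values, the distance between its groups is a description and gives no support. The other spindle and cytokinesis factors had 6 of 21 called lower and 2 higher, 28.6% and 9.52% beside 14.5% and 4.67%, from CKAP2 at −1.56 to TUBG1, the gamma-tubulin of centrosomes, at 1.63. Leaving out control replicate 1 or control replicate 2 gave −2.10 or −1.01 for CKAP2 and 2.62 or 0.64 for TUBG1.

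Among the listed DREAM and MuvB regulators, 1 of 7 tested was called higher, 14.3% beside 4.67% of all genes, and none lower, beside 14.5%. That was MYBL2, or B-MYB, with 4.69 and 1.58 FPKM in control and 8.56 and 7.93 FPKM with GLUP, a log2 fold change of 1.27. It was 0.70 without control replicate 2, under 2-fold, 1.84 without control replicate 1 and 0.78 with the GC trend subtracted. TFDP2 had −0.997 and was not called. Of the cyclins of the earlier cell cycle and the CDK inhibitors, none of 10 was called, beside 14.5% of all genes lower and 4.67% higher. Their median was −0.03. CDK4 had a log2 fold change of 1.14, or 0.30 without control replicate 2, and CCND2 of −0.91, or −0.49 without control replicate 1.

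**Figure D5:**
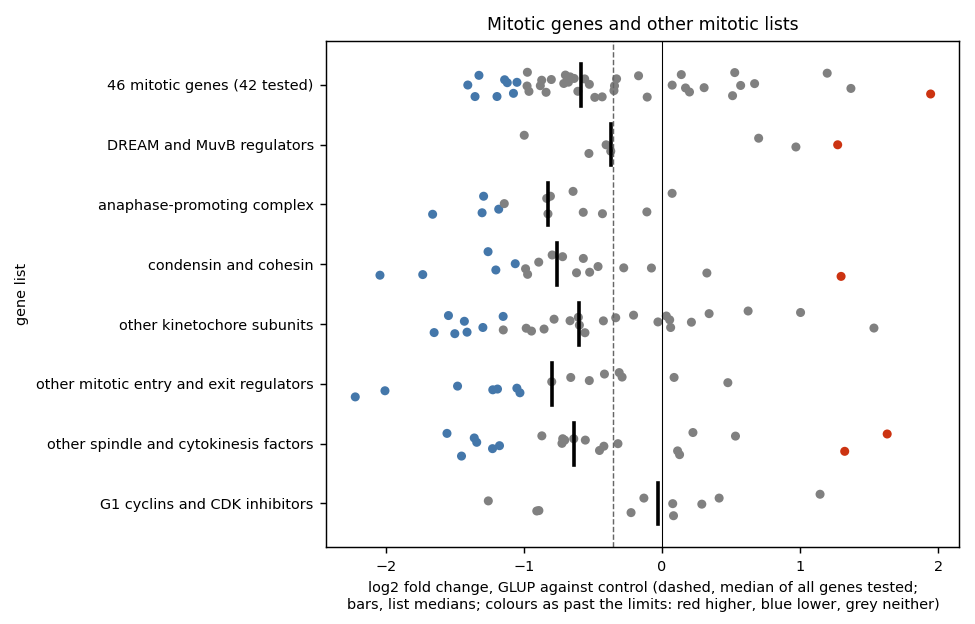
Log2 fold change of each tested gene in the 46 mitotic genes and in 7 further lists, with a bar at each list's median and a dashed line at the median of all genes tested, −0.36. List medians run from −0.83 for the anaphase-promoting complex to −0.03 for the earlier cyclins and CDK inhibitors.

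The genes called are placed here on GRCh37 by GENCODE 44 lifted to that build, whereas the submitters name GRCh38.p10, so the positions come from the annotation and not from the deposited table. PLK1 (ENSG00000166851) lies on chromosome 16 from 23688977 to 23701688 and CDK1 (ENSG00000170312) on chromosome 10 from 62538089 to 62554610, with BUB3 (ENSG00000154473) on the same chromosome from 124913918 to 124929983. BUB1 (ENSG00000169679) lies on chromosome 2 from 111395105 to 111435640, and SPC25 (ENSG00000152253) on chromosome 2 from 169690642 to 169769881. NUF2 (ENSG00000143228) lies on chromosome 1 from 163236366 to 163325554, NDC80 (ENSG00000080986) on chromosome 18 from 2571556 to 2616634, DLGAP5 (ENSG00000126787) on chromosome 14 from 55614830 to 55658326 and NUSAP1 (ENSG00000137804) on chromosome 15 from 41612992 to 41673248. Whether strand was used in counting is not given in the sources used here. For members with exons that overlap a gene on the other strand, such as CCNA2 with EXOSC9 (38.7 and 56.9 FPKM in control, 13.9 and 14.6 FPKM with GLUP) and KIF4A with PDZD11, shared fragments cannot be told apart.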

How the data were processed

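RNA of 2 control and 2 GLUP libraries was sequenced on an Illumina platform. Reads were analysed on the Majorbio platform by the authors, who deposited 1 FPKM value per gene and library. The submitters' processing notes name HISAT2, Cufflinks and RSEM without versions and GRCh38.p10, while the identifiers have the form of GENCODE annotation lifted to GRCh37. Of 62492 rows, 49 second copies of pseudoautosomal genes were summed with the first, and 99.55% of the genes matched a name. No steps of whole reads were seen among low values, so depth is unknown and no counting error is given. FPKM summed to between 909735 and 949919 per library. Exact zeros can be failed estimates.

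Genes averaging 1 FPKM or more were compared as log2(FPKM + 1), which understates the change of low genes, with limma 3.58.1 in R 4.3.3 (mean-variance trend, Benjamini-Hochberg adjustment over 7588 genes). The test was checked on simulated data with independent noise in each gene and library. These lacked the GC-linked difference between the controls, so the check cannot show how the p-values behave under it. Alternatives were a pseudocount of 0.1, all genes above 0, an average of 5 FPKM or more, centring on medians, subtraction of a lowess trend (span 0.3) with the GC content of the longest transcript, the replicate number as a block, and leaving out each library. With a library left out, the lone library of its group was assumed to vary like the others. All 46 members are named, and of each further list the highest and lowest gene whose groups did not overlap. CDKN3 was named outside this rule. The members and lists were chosen with earlier results of these data known.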

Additional observations from a re-analysis of the deposited data

How the results depend on the processing

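Relative to all genes tested, the median log2 fold change of the members was −0.23. It was −0.51 with all genes above 0, −0.097 at a mean of at least 5 FPKM and −0.10 with the GC trend subtracted, with or without the replicate block, and −0.29 to −0.10 when 1 library was left out. Members called higher, 1 as reported, numbered 0 with a pseudocount of 0.1 and with all genes above 0, 4 when centred on medians, 3 with the replicate block and 0 to 6 without 1 library. The share of all genes called higher was 4.67% as reported, 5.19%, 0.880%, 10.5% and 6.29% in the same order, and 1.98% to 12.9% without 1 library. Members called lower, 8 as reported, numbered 14 with a pseudocount of 0.1, 2 when centred, 1 with the GC trend subtracted, alone or with the replicate block, and 0 to 12 without 1 library. All genes called lower made up 14.5% as reported, 22.0% with a pseudocount of 0.1, 5.64% when centred, 4.57% with the GC trend subtracted, 5.38% with the block as well and 5.76% to 23.0% without 1 library. Members with a limma adjusted p under 0.05 numbered 0 to 24 without 1 library, 24 without control replicate 1 and 10 without control replicate 2, where 53.2% and 18.7% of all genes passed.

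The same alternatives were added for the 7 further lists after the data were seen. Genes called higher, 4 as reported, numbered 2 with a pseudocount of 0.1, 2 of 142 tested with all genes above 0 and 2 with the GC trend subtracted. They numbered 1 of 51 tested at 5 FPKM, 8 when centred, 6 with the replicate block and 3 with the block and the GC trend. All genes called higher made up 4.67% as reported, then 5.19%, 0.880%, 4.68%, 5.49%, 10.5%, 6.29% and 5.65% in the same order. Genes called lower, 29 as reported, numbered 12 when centred, 5 with the GC trend subtracted, 6 with the block as well and 10 to 39 without 1 library.

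Of the 42 members tested, 32 kept their direction under all alternatives that gave a value. Reversals by centring were CENPE to 0.014, CKS1B to 0.24 and KIF20A to 0.17. With the GC trend subtracted, with or without the replicate block, ANLN became 0.29, CENPE 0.52, CKS1B 0.46, HMMR 0.12, KIF11 0.16 and KIF20A 0.11. Leaving out 1 library gave ranges that crossed 0 for BIRC5 (−0.70 to 0.0011), CCNA2 (−0.22 to 0.50), CKS1B (−0.54 to 0.32), CKS2 (−0.078 to 0.42), KIF20A (−0.37 to 0.026) and KIF2C (−0.044 to 0.19). The cause of these changes was not tested. Same-numbered libraries correlated at 0.126 in their deviations, over only 2 pairs, so the numbers were not taken to pair the samples, and the replicate block lost no lower call among the members. With 2 libraries per group and unknown depth, differences in the members under 1 FPKM could not be judged.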
